A study of Mus musculus with 6 samples.

Results

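The mitochondrial ribosomal protein genes studied here were the RefSeq protein-coding genes of the mouse build GRCm38.p6 whose symbols start with Mrpl or Mrps followed by a digit. There were 78 of them among 21887 protein-coding genes. Membership followed the symbol alone, without any measured value, but the set itself was chosen with earlier results of these data known. H3K27ac, the acetylated form of lysine 27 of histone H3 that is found at active promoters and enhancers, had been mapped by CUT&RUN, in which an antibody tethers a nuclease that cuts out the DNA around the mark. The cells were primary hematopoietic stem cells of mouse bone marrow, from 3 wild-type mice and 3 mice deficient in Ppp2ca, called knockout here. Ppp2ca encodes a catalytic subunit of the protein phosphatase PP2A. The deposited data were 1 list of peaks per library, and each library was taken as 1 mouse because the series text names 3 mice of each genotype. No label carries an animal number, so the spread given is that between these samples. The sources used here do not give strain, age, the part of Ppp2ca deleted, any Cre driver or the time of deletion.

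The mitochondrial ribosome translates the few messenger RNAs of the mitochondrial genome, which encode core subunits of the respiratory chain and of ATP synthase. Its RNAs come from mitochondrial DNA, whereas all of its proteins are encoded in the nucleus, made in the cytosol and imported. Some have bacterial homologues and others were added during mitochondrial evolution. Resting blood stem cells rely little on mitochondrial respiration and raise it when they divide and differentiate.

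The results turned on 3 kinds of gene start, and promoters of each kind are printed from RefSeq (build GRCm38.p6), 5′ to 3′ on the gene's own strand. Each run holds the 200 bases before the listed transcription start and the first 30 bases from it. Capitals mark motifs found on either strand: the NRF1 core GCATGCGC, the ETS motif CCGGAAG, the YY1 motif AAGATGG, the SP1 motif GGGCGG and the CCAAT box, as written or as the reverse complement. The first 3 belong to genes with a peak at a gene end in every knockout and no wild-type library, and with the start itself under a peak in all 3 knockout libraries.
Mrps9, chr1:42851033-42851262, plus strand: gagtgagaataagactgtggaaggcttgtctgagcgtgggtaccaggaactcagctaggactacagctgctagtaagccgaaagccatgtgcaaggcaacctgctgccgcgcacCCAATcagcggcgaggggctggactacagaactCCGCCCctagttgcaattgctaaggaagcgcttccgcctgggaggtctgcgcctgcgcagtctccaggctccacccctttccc
Mrps30, chr13:118387223-118387452, minus strand: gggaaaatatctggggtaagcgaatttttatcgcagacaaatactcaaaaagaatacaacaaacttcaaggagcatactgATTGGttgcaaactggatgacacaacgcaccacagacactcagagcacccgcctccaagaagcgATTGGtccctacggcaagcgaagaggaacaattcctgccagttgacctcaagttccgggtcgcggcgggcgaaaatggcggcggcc
Mrps18c, chr5:100798559-100798788, plus strand: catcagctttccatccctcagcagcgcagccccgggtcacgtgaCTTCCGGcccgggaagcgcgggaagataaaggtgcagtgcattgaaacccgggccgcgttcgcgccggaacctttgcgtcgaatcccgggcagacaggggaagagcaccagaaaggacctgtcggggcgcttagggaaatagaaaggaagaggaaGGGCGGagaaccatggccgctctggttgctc
The next 3 belong to genes whose start lay under a peak in all 6 libraries.
Mrps18b, chr17:35916411-35916640, minus strand: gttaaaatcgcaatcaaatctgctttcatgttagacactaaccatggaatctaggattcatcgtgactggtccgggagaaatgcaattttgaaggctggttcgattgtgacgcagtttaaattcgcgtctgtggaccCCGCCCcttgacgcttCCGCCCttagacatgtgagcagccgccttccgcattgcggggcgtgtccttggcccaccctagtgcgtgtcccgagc
Mrpl51, chr6:125192000-125192229, plus strand: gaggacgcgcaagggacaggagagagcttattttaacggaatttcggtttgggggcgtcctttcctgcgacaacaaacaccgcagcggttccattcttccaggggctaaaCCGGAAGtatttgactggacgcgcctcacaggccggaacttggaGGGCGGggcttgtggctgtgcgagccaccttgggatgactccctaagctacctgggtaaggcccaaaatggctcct
Mrpl11, chr19:4962106-4962335, plus strand: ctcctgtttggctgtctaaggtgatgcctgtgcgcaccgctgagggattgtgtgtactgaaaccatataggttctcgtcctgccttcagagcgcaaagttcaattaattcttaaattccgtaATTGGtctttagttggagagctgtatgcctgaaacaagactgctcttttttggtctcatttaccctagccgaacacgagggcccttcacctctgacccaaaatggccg
The last 2 belong to genes with no peak near the ends of the listed gene, but with a peak in 3 knockout and 0 wild-type libraries at the transcription start of the promoter table.
Mrpl22, chr11:58171464-58171693, plus strand: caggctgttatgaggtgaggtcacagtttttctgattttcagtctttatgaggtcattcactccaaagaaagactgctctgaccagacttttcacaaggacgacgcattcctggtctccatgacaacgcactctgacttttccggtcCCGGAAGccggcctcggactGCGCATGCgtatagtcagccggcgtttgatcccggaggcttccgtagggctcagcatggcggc
Mrps2, chr2:28467866-28468095, plus strand: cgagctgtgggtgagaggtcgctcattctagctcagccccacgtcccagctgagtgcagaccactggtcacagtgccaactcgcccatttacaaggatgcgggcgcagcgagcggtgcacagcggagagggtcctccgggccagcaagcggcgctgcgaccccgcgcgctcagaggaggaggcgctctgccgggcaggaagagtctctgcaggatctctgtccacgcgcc
Mrps18b held 2 SP1 motifs, beginning 63 and 47 bases before the start, and Mrps30 held 2 CCAAT boxes, beginning 120 and 56 bases before it. Mrpl22 held an ETS motif followed by an NRF1 core, beginning 53 and 33 bases before the start. Mrpl51 had an ETS motif 90 bases and an SP1 motif 46 bases before its start, Mrpl11 had a CCAAT box 78 bases before it, and none of these letters occurred in the printed window of Mrps2. A match is a description of letters, and no factor was measured.

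Several facts of the whole data set bear on every count that follows. The lists held 21917 to 29945 peaks in the wild-type libraries and 34016 to 50453 in the knockout libraries. The background that the authors' caller used, solved from each deposited fold and p-value, stands in for depth, since the lists hold no read totals. Its commonest value in replicates 1 to 3 was 0.499, 0.584 and 0.498 fragments per fragment length for the wild type and 0.738, 0.465 and 0.827 for the knockout, so knockout replicate 2 had the lowest. Ppp2ca itself carried a gene-end peak in all 6 libraries, which does not check the labels because the deleted part is not known. Of 12 stem cell markers, 3 had a gene-end peak in each wild-type library and 2 to 4 in each knockout library. Tal1 and Runx1 had one in all 6, whereas Cd34, Slamf1, Mecom, Hlf, Gata2 and Ly6a were among those with none in any. Markers of other cells were also marked: 3 of 6 erythroid genes in each wild-type and 4 to 5 in each knockout library, 2 to 4 and 2 to 5 of 6 myeloid genes, and 2 to 4 and 2 to 3 of 4 megakaryocyte genes. Of 4 B cell genes 0 to 2 were marked in either genotype, of 4 T or NK cell genes 0 in the wild type and 1 in the knockout, and of 4 endothelial and stromal genes 1 and 2. Their part in the results was not tested. A weaker mark in every cell and a mark in fewer cells cannot be told apart in such libraries.

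More mitochondrial ribosomal protein genes were marked in the knockout. A gene counted as marked if at least 1 base of a peak fell within 1000 bp of its listed first or last position. In replicates 1 to 3, 39, 51 and 47 of the 78 genes were marked for the wild type and 75, 71 and 73 for the knockout. Every knockout library was therefore above every wild-type library. The mean share was 58.5% ± 7.83 for the wild type and 93.6% ± 2.56 for the knockout (SD, n = 3 each). Over all protein-coding genes the same shares were 27.5% ± 2.03 and 42.0% ± 2.36 (SD, n = 3 each). Knockout replicate 2, with the lowest background, had 71 of the genes marked. With every list shortened to its best 21917 peaks the means were 44.7 genes in the wild type and 71.3 in the knockout. Lists of equal length do not make the depth equal, and the part of depth in these counts was not tested.

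**Figure D1:**
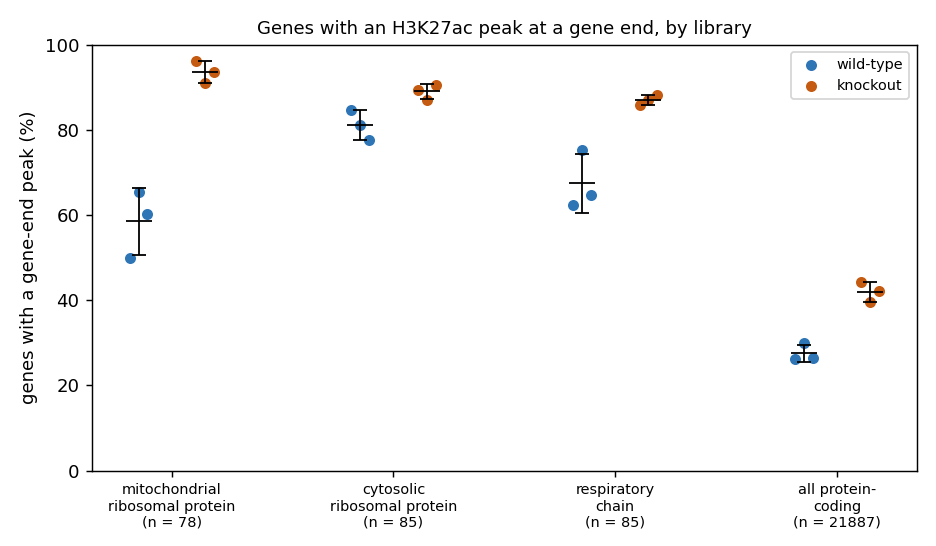
Share of genes with a gene-end H3K27ac peak (y axis, percent) in 4 gene sets (x axis), with 1 point per library and the mean and SD over 3 libraries of each genotype. Mitochondrial ribosomal protein genes lie at up to 65.4% in the wild-type libraries and at 91.0 to 96.2% in the knockout libraries, and cytosolic ribosomal protein genes have a mean of 81.2% already in the wild type.

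The cytosolic ribosomal protein genes and the nuclear genes of the respiratory chain, both related in function, gave another picture in the wild type. Of 85 cytosolic ribosomal protein genes, 72, 69 and 66 were marked in the wild-type and 76, 74 and 77 in the knockout libraries. Of 85 respiratory chain genes, 53, 64 and 55 were marked in the wild-type and 73, 74 and 75 in the knockout libraries. In the wild type the mitochondrial ribosomal protein genes thus had the lowest share of these 3 sets, with a mean of 58.5% against 81.2% and 67.5%. In the knockout they had the highest, with 93.6% against 89.0% and 87.1%. In these cytosolic and respiratory chain sets, 5 and 9 genes had no peak in any library. The 47 further genes of mitochondrial translation described below had means of 63.8% in the wild type and 97.2% in the knockout. This order was therefore not particular to the mitochondrial ribosomal protein genes. The difference between the sets was not tested, because genes of a set are not replicates.

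Each of the 78 genes fell into 1 of 4 classes. A gene-end peak in all 6 libraries was found at 25 genes, or 32.1%, against 17.0% of all protein-coding genes. They were Mrpl1, Mrpl11, Mrpl12, Mrpl13, Mrpl16, Mrpl27, Mrpl30, Mrpl33, Mrpl38, Mrpl40, Mrpl41, Mrpl46, Mrpl47, Mrpl51, Mrpl53, Mrpl54, Mrpl57, Mrpl58, Mrps5, Mrps7, Mrps11, Mrps12, Mrps18b, Mrps21 and Mrps27. A peak in all 3 knockout libraries and no wild-type library, called knockout-only, was found at 9 genes, or 11.5%, against 4.10% of all genes. The 9 were Mrpl20, Mrpl23, Mrpl34, Mrps9, Mrps15, Mrps18c, Mrps24, Mrps26 and Mrps30. The reverse pattern was found at 0 of the 78 genes and at 2 of all genes. Mrpl4, Mrpl22 and Mrps2 had no gene-end peak in any library. Peaks still touched Mrpl4 in each knockout library and in wild-type replicate 2. The nearest peaks lay 146, 145 and 416 bp outside its windows in the knockout and 5344, 997 and 5533 bp in the wild type.

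The remaining 41 genes had a peak in some libraries. In 24 of them it was present in 2 wild-type and all 3 knockout libraries: Mrpl2, Mrpl3, Mrpl10, Mrpl14, Mrpl15, Mrpl32, Mrpl36, Mrpl37, Mrpl42, Mrpl43, Mrpl44, Mrpl45, Mrpl48, Mrpl49, Mrpl50, Mrpl52, Mrpl55, Mrps10, Mrps14, Mrps17, Mrps18a, Mrps28, Mrps33 and Mrps34. In 12 it was present in 1 wild-type and all 3 knockout libraries: Mrpl9, Mrpl17, Mrpl18, Mrpl19, Mrpl21, Mrpl28, Mrpl35, Mrpl39, Mrps16, Mrps31, Mrps35 and Mrps36. Mrps6 and Mrps25 had it in 1 wild-type and 2 knockout libraries, Mrpl24 and Mrps22 in 0 and 2, and Mrps23 in 0 and 1. None of the 78 genes had a peak in more wild-type than knockout libraries.

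The share of knockout-only genes has to be read against how many genes were marked in the knockout at all. Of the 70 mitochondrial ribosomal protein genes marked in all 3 knockout libraries, 12.9% were knockout-only, close to the 11.3% among the 7914 protein-coding genes so marked. The share of these 70 marked in all 6 libraries was 35.7%, against 46.9% of the 7914. The knockout-only count was the same 9 genes with lists of equal length, where 2.91% of all genes were called. It depended on wild-type replicate 2, without which 15 genes, or 19.2%, were knockout-only against 7.14% of all genes, and on the strength of peak required. With only peaks of −log10 q-value 1.3 or more, 31 genes, or 39.7%, were knockout-only, against 12.4% of all genes.

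Most wild-type peaks at these genes were weak, as they were over all marked genes. The number of genes with a peak of −log10 q of at least 1.3 was 17, 19 and 19 in the wild-type libraries and 72, 66 and 73 in the knockout libraries. As shares of the marked genes these were 43.6, 37.3 and 40.4% and 96.0, 93.0 and 100%, against 37.3, 41.4 and 37.9% and 85.5, 81.3 and 93.2% of all marked protein-coding genes. At a −log10 q of at least 5 the numbers were 0, 1 and 1 in the wild type and 36, 23 and 48 in the knockout. As shares of the marked genes these were 0, 1.96 and 2.13% and 48.0, 32.4 and 65.8%. All marked protein-coding genes gave 4.04, 4.19 and 3.15% and 43.3, 23.5 and 51.0%. The q-values are the authors' and depend on the depth of each library. The best-ranked peak of a marked gene rested on a median of 6, 6 and 5 overlapping fragments at its summit in the wild-type libraries and 14, 10 and 17 in the knockout libraries. It was a median of 388, 382 and 405 bp wide in the wild type and 889, 725 and 936 bp in the knockout. Its median fold, taken from the authors' lists, was 3.89, 3.70 and 3.98 in the wild type and 4.74, 4.85 and 5.20 in the knockout. The best peaks of all marked protein-coding genes gave similar medians. They held 6, 6 and 6 fragments in the wild type and 14, 10 and 16 in the knockout, and were 375, 388 and 371 bp and 830, 633 and 914 bp wide. The wider and taller peaks of the knockout libraries were therefore seen over all genes as well.

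**Figure D2:**
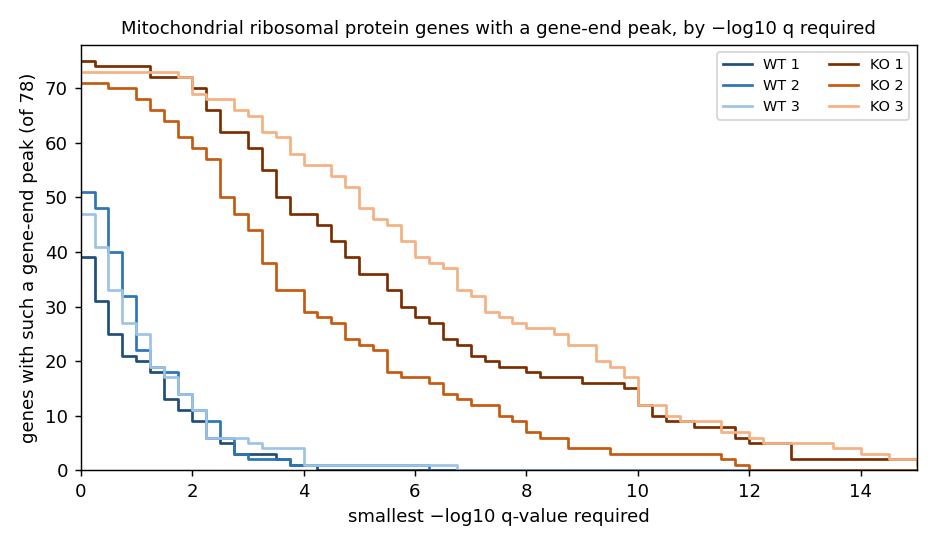
Number of the 78 genes with a gene-end peak (y axis) that reaches at least a given −log10 q-value (x axis), with 1 line per library. The wild-type lines (blue) fall to 9, 11 and 11 genes at a value of 2, where the knockout lines (orange) stand at 70, 59 and 69.

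The bases of the gene-end windows under peaks gave a graded measure of the mark's extent. They were higher in every knockout than in every wild-type library at 47 of the 78 genes, or 60.3%, against 25.6% of all protein-coding genes. Among genes with a peak in any library the shares were closer, 62.7% and 50.6%. The reverse separation was found at 0 of the 78 genes and at 4 of all genes. The mean was higher in the knockout at 74 genes, equal at the 3 genes without a gene-end peak and lower at 1. The median difference over the 78 was 560 bp. Of all 11087 genes with a peak, the mean was higher in the knockout at 10273 and lower at 786. Their median difference was 437 bp, against 566 bp for the 75 mitochondrial ribosomal protein genes with a peak. Among genes marked in all 6 libraries, the genotypes separated less often here. Covered bases were higher in every knockout library at 60.0% of the 25, against 66.5% of all such genes. A two-sided exact permutation test, with 20 ways to assign the libraries, cannot go below p = 0.1, so no gene could pass 0.05. After Benjamini-Hochberg adjustment over 11087 genes, the 47 genes were at 0.198 in this exact permutation test, and 0 genes lay under 0.05 with or without adjustment.

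**Figure D3:**
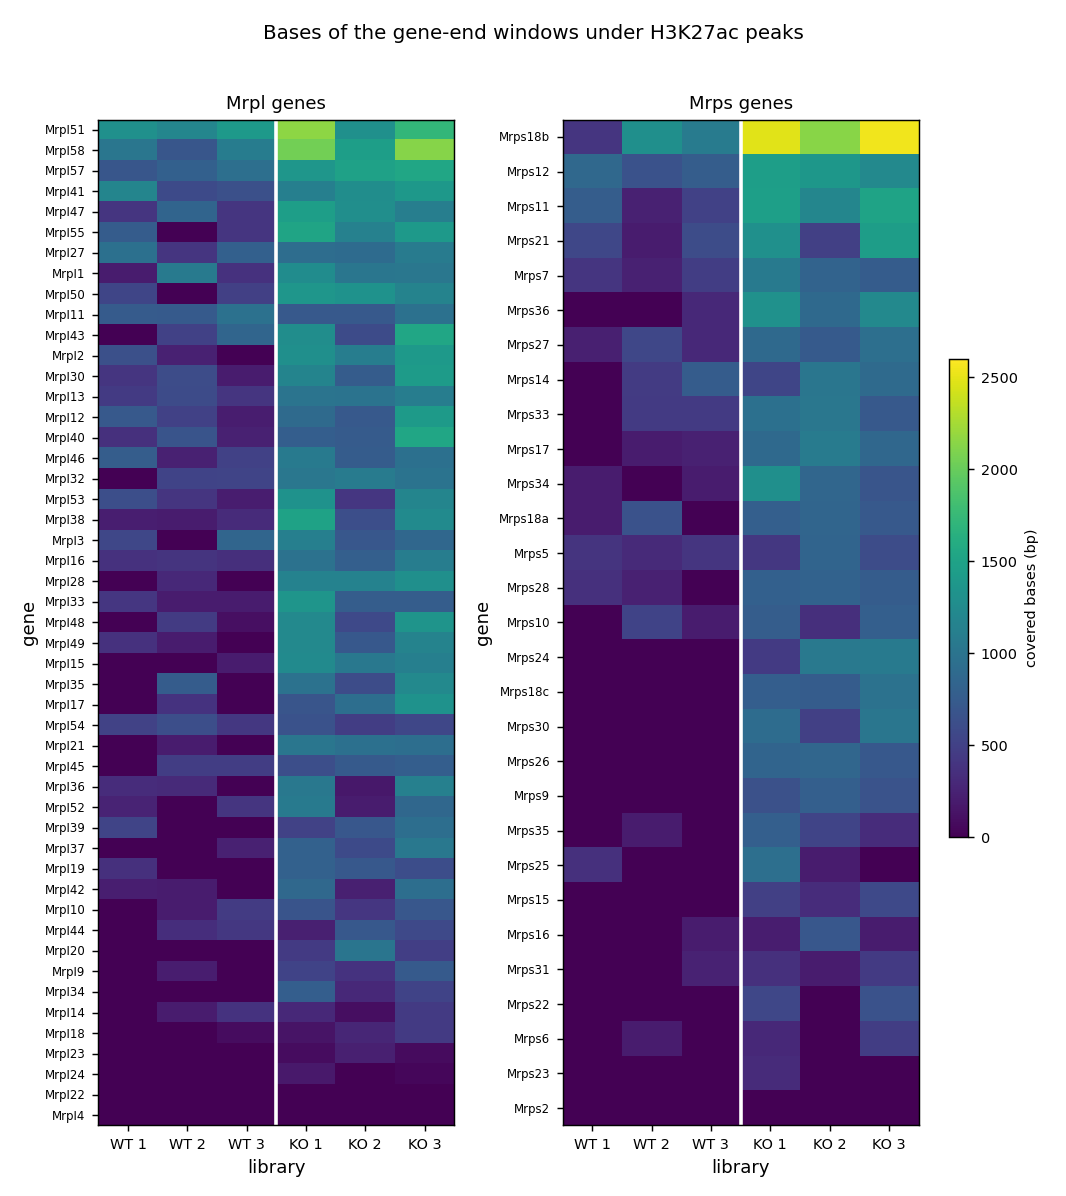
Bases of the gene-end windows under a peak (colour, bp) for each of the 78 genes (rows, ordered by their sum) in 3 wild-type (WT) and 3 knockout (KO) libraries (columns). Mrps18b is highest, and the knockout columns are brighter in most rows, with Mrpl11 and Mrpl54 among the exceptions.

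By subunit, the 51 proteins of the large subunit were encoded by genes marked at 64.1% ± 7.92 (SD, n = 3) in the wild type and 95.4% ± 1.13 in the knockout. This group includes the products of Mrps18a and Mrps30, which sit in the large subunit despite their names. The 26 genes of the small subunit were marked at 48.7% ± 8.88 in the wild type and 89.7% ± 5.88 in the knockout (SD, n = 3). In libraries the small-subunit numbers were 10, 14 and 14 of 26 in the wild type and 25, 22 and 23 in the knockout. Knockout-only genes made up 4 of the 51 and 5 of the 26. Mrps36, whose product is now also assigned to the oxoglutarate dehydrogenase complex, was placed in neither group. The 47 genes with a bacterial homologue were marked at 55.3% and 92.2%, and the 30 mitochondria-specific genes at 64.4% and 95.6%, in the wild type and knockout. Bacterial homologues made up 7 of the 9 knockout-only genes. These differences between groups of genes were not tested.

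Among the knockout-only genes of the small subunit, Mrps9 (chromosome 1, 42851233 to 42905683, plus strand) had the best-ranked peaks. It encodes the homologue of a bacterial protein of the small-subunit head. Its gene-end windows held 643, 787 and 664 bp under peaks in knockout replicates 1 to 3 and 0 in each wild-type library. The peaks began 91, 44 and 48 bp before the start whose promoter is printed above, and ran downstream into the gene. The authors' folds were 6.14, 5.56 and 5.66, on 13, 8 and 11 fragments at the summit. No neighbouring gene shared the window.

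Mrps18c (chromosome 5, 100798759 to 100804467, plus strand) encodes 1 of 3 mammalian relatives of a single bacterial protein. It had 782, 758 and 981 bp under peaks in the knockout libraries and 0 in the wild type. The authors' folds were 4.35, 4.84 and 4.35. The nearest wild-type peak, in replicate 3, lay 897 bp outside the window. The start of Helq lay 159 bp away on the other strand, and the window was shared with Helq and Abraxas1. The paralog Mrps18a had 200, 650 and 0 bp in the wild type and 785, 845 and 723 bp in the knockout. The third paralog, Mrps18b, was marked in all 6 libraries, so the family had peaks in 0, 2 and 3 wild-type libraries at Mrps18c, Mrps18a and Mrps18b.

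Mrps15 (chromosome 4, 126046928 to 126055536), the homologue of a bacterial protein that binds small-subunit RNA early in assembly, had 495, 325 and 574 bp under peaks in the knockout libraries. Its window was shared with Csf3r, the receptor gene of granulocyte colony-stimulating factor, and with Oscp1, and a wild-type replicate 2 peak lay 780 bp outside it. Mrps24 (chromosome 11, 5703982 to 5707701, minus strand), another gene with a bacterial homologue, had 439, 1049 and 1063 bp. Mrps26 (chromosome 2, 130563757 to 130565394), a mitochondria-specific protein gene, had 840, 860 and 718 bp. All 3 had 0 bp in each wild-type library. The nearest wild-type peaks lay at least 31942 bp from the Mrps24 window and 15605 bp from that of Mrps26.

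Among the knockout-only genes of the large subunit, Mrps30 (chromosome 13, 118380110 to 118387252, minus strand), the gene of a mitochondria-specific protein, had 918, 488 and 1023 bp under peaks in the knockout libraries and 0 in the wild type. Its nearest wild-type peak lay at least 139535 bp from the window. Mrpl20 (chromosome 4, 155802878 to 155808831), whose bacterial homologue is needed for large-subunit assembly, had 439, 1006 and 487 bp. Its summits lay 746, 865 and 1028 bp downstream of the listed start, and Ccnl2 shared its window. Mrpl34 (chromosome 8, 71464926 to 71465753), whose homologue is among the smallest bacterial ribosomal proteins, had 781, 300 and 525 bp, and shared its window with Abhd8. The replicate 2 peak there had its summit 725 bp before the start, and only 1 of the 3 pairs of best-ranked Mrpl34 peaks overlapped. Mrpl23 (chromosome 7, 142532467 to 142540747), whose homologue lines the mouth of the peptide exit tunnel, had 87, 224 and 74 bp. At the end with its start the overlaps were 87, 24 and 74 bp, the edges of peaks 764, 372 and 882 bp wide, and the other 200 bp of replicate 2 lay at the far end. All 9 knockout-only genes had a peak of −log10 q of at least 1.3 in each knockout library, and 0 of the 9 kept the call at a −log10 q of at least 5.

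**Figure D4:**
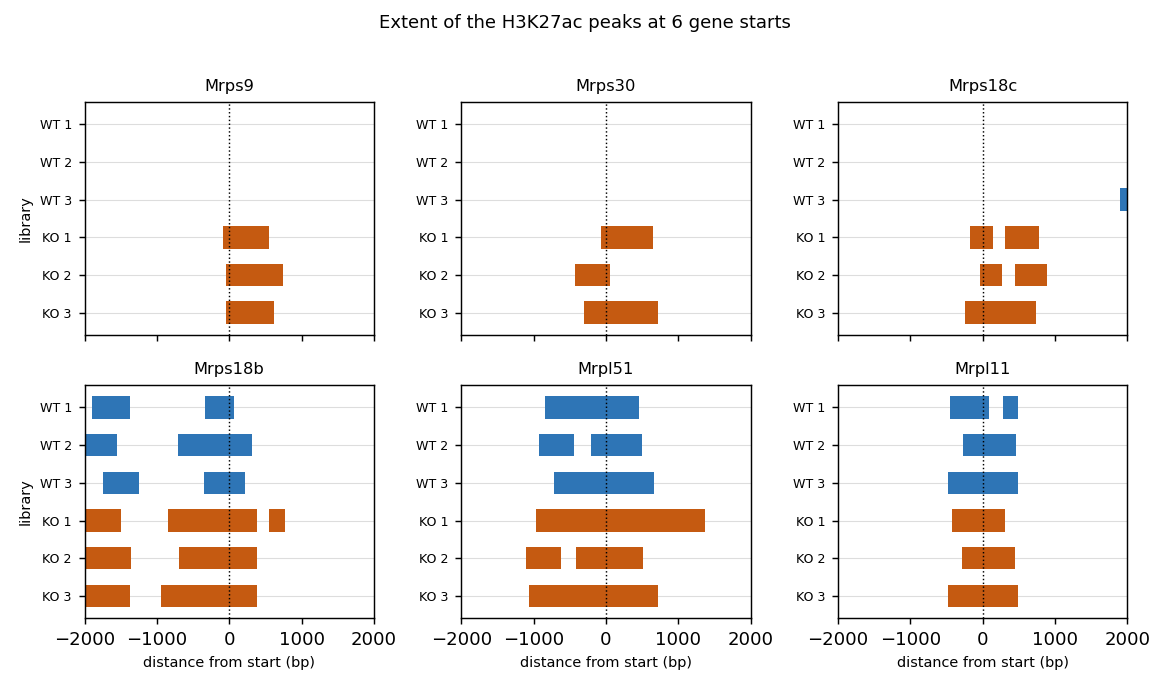
Extent of the listed peaks (bars) around the transcription start (dotted line) of 6 genes, by distance from the start in the direction of transcription (x axis, bp), in 3 wild-type (WT, blue) and 3 knockout (KO, orange) libraries. Mrps9, Mrps30 and Mrps18c carry bars over the start in the knockout alone (the wild-type bar at Mrps18c lies near the right edge), Mrps18b and Mrpl51 in all 6 libraries, and Mrpl11 has bars of like width in both genotypes.

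Of the genes marked in all 6 libraries, Mrps18b (chromosome 17, 35910380 to 35916440, minus strand) ranked best. It had 400, 1296 and 1078 bp under peaks in the wild type and 2484, 2142 and 2547 bp in the knockout, without overlap, and the largest difference of the 78 genes at 1466 bp. Its best peak held 17, 17 and 21 fragments at the summit in the wild type and 48, 40 and 56 in the knockout. The authors' folds did not separate the genotypes, at 4.15, 3.69 and 5.37 against 3.78, 4.64 and 3.89. The window was shared with Ppp1r10, whose start lay 756 bp away, and with Atat1.

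Mrpl11 (chromosome 19, 4962152 to 4966995) encodes the protein at the base of the stalk that receives translation factors. It had 742, 737 and 967 bp under peaks in the wild type and 723, 725 and 973 bp in the knockout. The means of 815 ± 131 and 807 ± 144 bp (SD, n = 3 each) differed by less than the spread between replicates, and Mrpl11 was the 1 gene with a lower knockout mean. The summits were taller, with 9, 8 and 6 fragments in the wild type and 25, 15 and 20 in the knockout. The authors' folds were 5.75, 4.55 and 4.38 against 10.2, 8.16 and 7.72. Extent and height therefore gave different pictures at this promoter.

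Mrpl51 (chromosome 6, 125192200 to 125194392), the gene of a mitochondria-specific protein, had 1300, 1198 and 1392 bp under peaks in the wild type and 2155, 1305 and 1723 bp in the knockout, with overlap between the genotypes. Its window was shared with Ncapd2. Mrpl27 (chromosome 11, 94653770 to 94661932), whose homologue reaches towards the peptidyl transferase centre, had 959, 401 and 796 bp against 933, 908 and 1082 bp, also with overlap. Mrpl47 (chromosome 3, 32727497 to 32736755) had 405, 835 and 406 bp against 1459, 1289 and 1113 bp, without overlap. It shared its window with Actl6a and with Ndufb5, a subunit gene of respiratory complex I.

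Mrpl58 (chromosome 11, 115403724 to 115412674) encodes a peptidyl-tRNA hydrolase built into the large subunit that can release stalled ribosomes. It had 1019, 691 and 1092 bp under peaks in the wild type and 2045, 1455 and 2123 bp in the knockout. Most of this coverage lay at the far end of the gene in both genotypes, with 613, 691 and 1092 bp in the wild type and 1521, 1007 and 1362 bp in the knockout. The best-ranked peaks were at different ends. The best wild-type summits lay 9649, 9159 and 8760 bp downstream of the start, and the best knockout summits 134, 135 and 134 bp downstream of it. At the start itself a peak was listed in wild-type replicate 1 alone, with 406 bp, and in the knockout libraries with 524, 448 and 761 bp.

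After Mrps18b, the largest differences were at genes with few wild-type peaks. Mrpl28 had 0, 302 and 0 bp under peaks in the wild type and 1153, 1154 and 1295 bp in the knockout. Mrpl15 had 0, 4 and 200 bp against 1246, 1043 and 1122 bp. Mrps36 had 0, 0 and 303 bp against 1319, 885 and 1228 bp. These 3 genes had low values in all wild-type libraries and no overlap between genotypes. Mrpl2, whose homologue lies at the peptidyl transferase centre, had 630, 238 and 0 bp against 1294, 1101 and 1408 bp. Mrpl55 had 760, 0 and 405 bp against 1523, 1138 and 1402 bp. At the other extreme, Mrpl54 had 509, 626 and 418 bp in the wild type and 660, 474 and 556 bp in the knockout, with overlap. Mrpl24 had 0 in the wild type and 182, 0 and 42 bp in the knockout at its gene ends.

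Peaks lay mainly at the transcription start. RefSeq promoter entries gave the start and strand of 69 of the 78 genes; Mrpl4, Mrpl13, Mrpl15, Mrpl19, Mrpl38, Mrpl54, Mrps28, Mrps34 and Mrps35 had no entry. Within 1000 bp of the start a peak was listed at 35, 47 and 44 of the 69 genes in the wild-type and 69, 67 and 68 in the knockout libraries. Of the 69, 26 or 37.7% were marked there in all 6 libraries, against 18.7% of the 17492 genes with an entry. Knockout-only starts numbered 11, or 15.9%, against 4.38% of those genes. They were the 9 knockout-only genes and Mrpl22 and Mrps2. Of the 66 starts marked in all 3 knockout libraries 16.7% were knockout-only, against 11.4% of the 6746 starts so marked over all genes.

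Mrpl22 and Mrps2 had no peak near the ends of the gene as listed, and their start in the promoter table lies inside the listed span. Mrpl22, whose homologue lines the exit tunnel, had 273, 485 and 990 bp under peaks at the start in the knockout libraries and 0 in each wild-type library. Mrps2, whose homologue joins the small subunit late in assembly, had 200, 305 and 603 bp and again 0. Mrpl18, Mrpl24, Mrpl36, Mrpl45 and Mrpl48 were marked in all 6 libraries at the start, and Mrpl58 was not. At the start of Mrpl24 the values were 461, 774 and 200 bp in the wild type and 1247, 648 and 923 bp in the knockout. Mrps23 had 0, 349 and 200 bp at its start in the wild type and 1027, 837 and 1139 bp in the knockout.

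The start base itself was under a peak at 22, 28 and 26 of the 69 genes in the wild type and 55, 54 and 63 in the knockout. These were 31.9, 40.6 and 37.7% and 79.7, 78.3 and 91.3%, against 12.6, 14.6 and 12.8% and 33.0, 27 and 33.6% of all 17492 starts. At 300 bp downstream it was 16, 23 and 14 genes in the wild type and 52, 46 and 57 in the knockout. At 300 bp upstream it was 16, 10 and 15 in the wild type and 37, 30 and 40 in the knockout. The knockout coverage was thus higher downstream than upstream in each library, as it was over all starts, with 29.0, 23.1 and 29.9% downstream and 22.8, 17.5 and 23.4% upstream in the knockout. The median summit lay 92, 96 and 92 bp downstream of the start in the knockout libraries and at −15, 32 and −31 bp in the wild type, where negative is upstream. At 3000 bp on either side 0 genes were covered in any library.

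**Figure D5:**
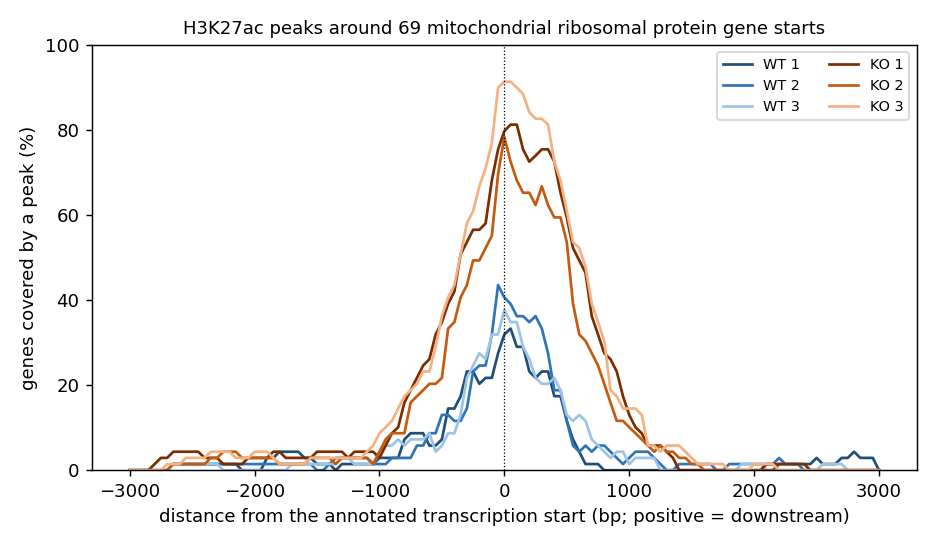
Share of 69 mitochondrial ribosomal protein genes with a peak over each position (y axis, percent) by distance from the transcription start (x axis, bp, positive downstream), with 1 line per library. At the start the knockout lines (orange) reach 78.3 to 91.3% and the wild-type lines (blue) 31.9 to 40.6%.

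The far end of the gene was seldom marked. Of the 49 genes at least 4000 bp long, 1, 2 and 2 had a far-end peak in the wild-type libraries and 9, 4 and 4 in the knockout libraries. At the start the numbers for the same genes were 26, 34 and 30 against 49, 47 and 48. Far ends were not counted over all genes, so these numbers do not show a trait of this set.

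Many of these genes share a promoter region with a neighbour. The window of 50 of the 78 overlapped that of another protein-coding gene, and a peak there cannot be assigned to 1 of the genes. The 50 were marked at 64.7% in the wild type and 92.7% in the knockout, with 21 marked in all 6 libraries and 4 knockout-only. The 28 with a window of their own were marked at 47.6% ± 8.99 and 95.2% ± 2.06 (SD, n = 3 each), with 4 marked in all 6 libraries and 5, or 17.9%, knockout-only. Of all 14839 genes with a window of their own, 10.9% were marked in all 6 libraries and 3.35% were knockout-only. Of the 26 mitochondrial ribosomal protein genes with such a window marked in all 3 knockout libraries, 19.2% were knockout-only. That share was not computed over all genes with a window of their own, so the knockout-only shares of 17.9% and 3.35% have unlike bases. In libraries these 28 gave 11, 16 and 13 marked genes in the wild type and 27, 27 and 26 in the knockout. The higher counts in the knockout were therefore seen without shared windows too.

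Start sites facing away from each other on opposite strands within 1000 bp, called head-to-head, were found at 24 of the 69 genes, or 34.8%, against 8.48% of the 17492 genes. Those 24 were marked at the start in 17, 22 and 20 cases in the wild-type libraries and in 24 of 24 in each knockout library. The 45 others were marked in 18, 25 and 24 cases in the wild type and 45, 43 and 44 in the knockout. All 6 libraries marked 15 of the 24 but 11 of the 45, and 1 of the 24 but 10 of the 45 were knockout-only. The same order held over all genes in the wild type, where 69.4% of head-to-head starts and 25.3% of the others were marked. Over all genes, 52.4% of head-to-head starts and 15.6% of the others were marked in all 6 libraries, against 62.5% and 24.4% here. As shares of all starts, knockout-only starts were 5.46% of head-to-head starts and 4.28% of the others over all genes, against 4.17% and 22.2% here. These shares have unlike bases. Over all genes a mean of 89.8% of head-to-head starts and 39.5% of the others were marked in the knockout, against 100% and 97.8% here. They therefore do not show whether the order differs among starts marked in the knockout. The 1 head-to-head gene that was knockout-only was Mrps18c.

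Some of these pairs join genes of related function. Mrpl46 and Mrps11, 1 gene of each subunit, have starts 42 bp apart on chromosome 7. Both had 765, 235 and 499 bp under peaks in the wild type. In the knockout Mrpl46 had 1062, 758 and 957 bp and Mrps11 had 1472, 1193 and 1511 bp. At their starts both genes had the same values, those of 1 shared region. The further knockout coverage of Mrps11, 410, 435 and 554 bp, lay at its far end. Mrps12, of the decoding centre, faces Sars2, the mitochondrial seryl-tRNA synthetase gene, at 147 bp. Mrpl43 faces Twnk, the gene of the mitochondrial DNA helicase, at 116 bp. Mrpl49 faces Fau, which encodes a cytosolic ribosomal protein, at 192 bp. Mrpl40 faces Hira, a histone chaperone gene, at 113 bp.

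The promoters also shared letters that the choice by symbol did not use. In the 300 bases from 250 before to 50 after the start, searched on both strands, the ETS motif CCGGAAG was found at 25 of 69 genes, or 36.2%, against 11.9% of the 17492 promoters. The YY1 motif AAGATGG was found at 13, or 18.8%, against 6.37%, and the NRF1 core GCATGCGC at 8, or 11.6%, against 3.61%. Among all promoters of genes marked in 3 knockout libraries the shares were 23.2%, 8.74% and 6.36%. The SP1 motif GGGCGG was at 49.3% against 46.3%, CCAAT at 39.1% against 39.0% and TATAAA at 5.80% against 13.3%. Among promoters of genes marked in 3 knockout libraries these motifs were at 65.3%, 41.0% and 6.5%, so SP1 was less frequent in the mitochondrial ribosomal protein genes than there and TATAAA was close. The median number of CpG was 21.0 against 13. Of the 11 promoters with knockout-only starts, 4 held the ETS motif, 1 the YY1 motif and 1, that of Mrpl22, the NRF1 core. Of the 26 with starts marked in all 6 libraries, 10, 5 and 2 did.

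The wider machinery of mitochondrial translation was marked in the same direction. Of 47 further genes in 4 lists, 31, 32 and 27 had a gene-end peak in the wild-type and 47, 44 and 46 in the knockout libraries. All 6 libraries marked 21 of them, or 44.7%, against 17.0% of all genes. Knockout-only genes numbered 8, or 17.0%, against 4.10% of all genes. Of the 44 marked in all 3 knockout libraries 18.2% were knockout-only, against 11.3% of all genes so marked.

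Translation factors held 5 of these 8 knockout-only genes. In the wild-type libraries 6, 7 and 6 of the 13 were marked, and in each knockout library all 13 were. The 5 included both initiation factor genes, Mtif2 with 489, 268 and 288 bp under peaks and Mtif3 with 409, 383 and 880 bp. Mtfmt, which formylates the initiator methionyl-tRNA, had 325, 411 and 191 bp. The elongation factor genes Tsfm and Gfm1 had 803, 651 and 750 bp and 822, 200 and 889 bp. Mtif2 shares its window with the cytosolic ribosomal protein gene Rps27a, Tsfm with Avil and Eef1akmt3, and Mtfmt with Spg21. The best-ranked peaks of Gfm1 in knockout replicate 1 and of Mtfmt in knockout replicate 2 had −log10 q-values of 1.24 and 1.12, below 1.3. Mtif2, Mtif3 and Tsfm had a peak of at least 1.3 in all 3 knockout libraries. Mtrf1 and Gfm2, which act in termination and recycling, were the best-ranked of the 5 marked in all 6 libraries.

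Of 22 genes of mitoribosome assembly and mitochondrial RNA modification, 16, 15 and 13 were marked in the wild type and 22, 20 and 21 in the knockout. Noa1, a GTPase of small-subunit assembly, had 897, 1300 and 968 bp under peaks in the knockout libraries. Mtg2, a GTPase of the large subunit, had 823, 251 and 1075 bp, and Rbfa, a small-subunit assembly factor, had 281, 731 and 545 bp. These 3 were the knockout-only genes of the list. Noa1 shares its window with Polr2b, and Mtg2 with Ss18l1. In knockout replicate 2 the best-ranked peaks of Mtg2 and Rbfa had −log10 q-values of 0.321 and 0.790, below 1.3. Noa1 had a peak of at least 1.3 in all 3 knockout libraries. The RNA methyltransferase genes Tfb1m and Nsun3 were the best-ranked of the 10 marked in all 6 libraries. Of 7 genes of mitochondrial transcription and RNA stability, 5, 6 and 4 were marked in the wild type and 7, 6 and 7 in the knockout, with 0 knockout-only. Lrpprc and Slirp, which form a complex that stabilises mitochondrial messenger RNAs, were the best-ranked of the 3 marked in all 6. Of 5 mitoribosome protein genes named by other symbols, 4 were marked in each wild-type and 5 in each knockout library, and Chchd1 and Aurkaip1 ranked best among the 3 marked in all 6.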

How the data were processed

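H3K27ac CUT&RUN libraries of mouse bone marrow hematopoietic stem cells, 3 wild-type and 3 Ppp2ca-deficient, were used as deposited peak lists. The submitters' processing notes name MACS2, BWA, Trimmomatic, HOMER, ChIPseeker and deepTools and the build GRCm38/mm10. Versions, parameters and any control library: not given in the sources used here. Each list holds, as deposited, a score, a fold (a ratio over background), a −log10 p-value, a −log10 q-value and a summit offset per peak. Peaks were called per library, per the peak names in the deposited lists, and the lowest −log10 p-value was 2.005 to 2.006. Fold and q-value depend on depth and are the authors'; they served to rank and filter peaks inside each list.

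From these lists, peaks overlapping by at least 1 bp the windows of 1000 bp around gene ends (RefSeq GRCm38.p6) or starts were assigned with Python 3.11.15, numpy 2.4.6 and pandas 2.3.3. Figures were drawn with matplotlib 3.10.9. Background and summit fragments were solved with scipy 1.17.1 from fold = (pileup + 1)/(background + 1) and the Poisson tail, at a tolerance of 0.002. The background used peaks of −log10 p under 15, and summit fragments were solved without that limit. Heights were not tested between lists. Covered bases were tested per gene by an exact permutation test with Benjamini-Hochberg adjustment over all genes with a peak. The calls were tested on simulated data. The genes and lists were chosen with earlier results of these data known, so no p is given over a list. Values in every library are given for each knockout-only gene, the 6 best-ranked genes marked in all 6 libraries, the 6 highest and 6 lowest differences, the Mrps18 paralogs and the pair that shares a window; genes described at the start alone were chosen after their values were seen. Alternatives were q-value thresholds, equal list lengths, other windows, summits, unshared windows, starts alone, each library left out and a replicate block; starts combined with a q-value or with equal lists were chosen after seeing the data. No depth in reads was available, which limits how weak a peak could be seen.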

Additional observations from a re-analysis of the deposited data

How the results depend on the processing

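The 78 genes gave 9 knockout-only genes, 25 marked in all 6 libraries, means of 73.0 and 45.7 marked genes per knockout and wild-type library, and 47 genes with covered bases higher in every knockout library. In none of the alternatives run was a gene wild-type-only. Peaks of −log10 q of at least 1.3 gave 31, 5, 70.3 and 18.3 for the first 4 of these values. Peaks of −log10 q of at least 5 gave 15, 0, 35.7, 0.667 and 17. At that setting 19.2% of the 78 genes and 6.23% of all genes were knockout-only. Covered bases were higher in every knockout library at 21.8% and 7.58%. The 28 genes without a shared window, being fewer, gave 5, 4, 26.7, 13.3 and 18. The first and last were 17.9% and 64.3% of them, against 3.35% and 18.1% of all genes without one. The mean per knockout library moved by more than its small SD to 67.3 with a 500 bp window, 75.7 with 2000 bp, 68.7 with the summit inside the window and 68.0 at the 69 starts alone. Starts with −log10 q of at least 1.3 gave 29, 5, 65.3 and 18, where 42.0% of the 69 genes and 13.2% of all were knockout-only. Starts with lists of equal length gave a mean of 66.3 per knockout library. Both settings were chosen after seeing the data. Leaving out each library gave 9 to 15 knockout-only genes, 25 to 38 marked in all, means of 72.0 to 74.0 and 43 to 49.0, and 48 to 63 genes higher in every knockout library. Over all genes the same runs called 4.73 to 7.14% knockout-only and 27.4 to 33.9% higher in every knockout library. The 15 came without wild-type replicate 2 and the 38 without wild-type replicate 1, and fewer libraries must meet the call in each such run. With a replicate block, which asks only that each knockout library exceed the wild-type library of its number, 59 genes were higher in place of 47. Over all genes 6569 were higher in place of 5608. Same-numbered libraries did not deviate together more than others (r = −0.002, −0.017 and −0.010 across genes, against −0.019 to 0.027 for different numbers). With 3 libraries per genotype this cannot show whether same-numbered samples were handled together. Of 81 recomputed values, 56 did not move beyond their limit (1.5 times for a count, 1 SD for a mean), and the 25 that did are those given here. The cause of these movements was not tested where the construction does not show it. Wild-type summits of about 5 fragments limit what an absent peak means: the mark was not detected at this depth.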
